A study of Mus musculus with 2 samples.

Results

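The 8 genes followed here code for receptors of chemokines or of the chemokine-like protein chemerin: Cx3cr1, Cmklr1, Ccr1, Ccr2, Cxcr4, Ccrl2, Ackr1 and Ackr3. They were taken by symbol from the gene column of the deposited matrices, and all 8 of 8 were found among 27998 genes in both libraries. The mice were of the C57BL/6J background and the strain Cx3cr1-CreERT2-YFP::flxRunx1 in both groups, so an inducible Cre recombinase and yellow fluorescent protein (YFP) sat at Cx3cr1, and the Runx1 gene was floxed. Mice labelled wild type had vehicle injections. Mice labelled Runx1 knock-out had tamoxifen at 1 mg per day for 5 days, and tissue of both groups was taken 4 weeks after the injections began. YFP-positive cells of the dissociated spinal cord were sorted and made into 1 droplet library per group, named below the vehicle library and the library labelled knock-out. The labels do not give the number of animals behind a library, how many intact Cx3cr1 copies the mice had or whether reporter transcripts were counted as Cx3cr1. Tamoxifen and knock-out cannot be told apart, and with 1 library a group no difference has a replicate check. Every interval here is a 95% interval for counting error only.

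Chemokine receptors are membrane proteins that pass a ligand signal to inhibitory G proteins and steer the movement of immune cells. CX3CR1 binds fractalkine, the product of Cx3cl1, and in the central nervous system it marks microglia, the resident macrophages, so its promoter is widely used to label and target them. CCR1, CCR2 and CXCR4 guide circulating leukocytes, and CCR2 in particular marks inflammatory monocytes. CMKLR1 is the signalling receptor of chemerin (Rarres2). CCRL2, ACKR1 and ACKR3 are atypical members that bind ligand without the usual G protein signal: CCRL2 presents chemerin, ACKR1 carries chemokines across venous endothelium, and ACKR3 removes CXCL12.

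Promoter sequence is shown for the 3 members that reached 20 counts per 1000000 UMIs (CPM) in microglia-like cells of a library and for Ackr3, a vessel member that holds a RUNX word like Cx3cr1. All bases are from RefSeq on GRCm38.p6, on the gene's own strand, and capitals mark a motif match. The windows searched ran from 250 bases before to 50 after each start, on both strands. The words were TGTGGT for RUNX, GAGGAA for PU.1 (the product of Spi1) and TGANTCA for AP-1, and 16.8%, 28.3% and 7.81% of 32851 promoters of that length hold them.
Cx3cr1 (chr9:120068333-120068362, minus strand): taaagatagggtACCACAcaggaaaccaga
Ccrl2 (chr9:111057520-111057768, minus strand): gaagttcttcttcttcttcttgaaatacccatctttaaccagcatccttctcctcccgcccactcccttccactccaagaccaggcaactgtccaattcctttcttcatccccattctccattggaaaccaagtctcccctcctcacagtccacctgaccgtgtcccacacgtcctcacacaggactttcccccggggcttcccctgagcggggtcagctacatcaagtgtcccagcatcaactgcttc
Cmklr1 (chr5:113643604-113643853, minus strand): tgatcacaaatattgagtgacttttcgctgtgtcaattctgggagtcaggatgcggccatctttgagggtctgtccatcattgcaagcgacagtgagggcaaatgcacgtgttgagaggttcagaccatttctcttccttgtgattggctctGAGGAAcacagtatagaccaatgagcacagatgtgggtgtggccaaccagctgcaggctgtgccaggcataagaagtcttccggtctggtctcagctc
Ackr3 (chr1:90203730-90203979, plus strand): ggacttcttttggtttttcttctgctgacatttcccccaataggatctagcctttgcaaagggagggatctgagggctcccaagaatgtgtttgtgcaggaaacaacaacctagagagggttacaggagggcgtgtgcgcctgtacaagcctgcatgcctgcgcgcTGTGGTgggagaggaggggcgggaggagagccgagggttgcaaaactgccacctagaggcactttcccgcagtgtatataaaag
Only 30 bases are given for Cx3cr1, because an exon of the annotated transcript Cx3cr1-203 covers the window. The Cx3cr1 run holds a RUNX word read on the opposite strand, which starts 54 bases before the start site. Cmklr1 holds a PU.1 word 98 bases upstream and Ackr3 a RUNX word 84 bases upstream. Ccr1 holds a RUNX word at 58 bases and a PU.1 word at 129 bases upstream. None of the 3 words was found in the windows of Ccr2, Cxcr4 and Ackr1 or in the 3 windows of Ccrl2, and AP-1 was found for no member. A match describes letters only and says nothing of binding.

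On GRCm38 (GENCODE M21), 4 members lie on chromosome 9. Cx3cr1 (ENSMUSG00000052336) spans 119901616 to 120069879 on the minus strand, and this span overlaps counted genes on both strands, among them Wdr48 and Ttc21a on the opposite strand and Csrnp1 and Xirp1 on its own. Ccrl2 (ENSMUSG00000043953) spans 111054486 to 111057519. Ccr1 spans 123962124 to 123968692 and Ccr2 spans 124101950 to 124113557. On chromosome 5, Cmklr1 (ENSMUSG00000042190) spans 113612354 to 113650426 and overlaps the antisense gene Gm15736. On chromosome 1, Cxcr4 spans 128588199 to 128592293, Ackr3 (ENSMUSG00000044337) spans 90203980 to 90216751, and Ackr1 (ENSMUSG00000037872) spans 173331886 to 173333750 and overlaps Cadm3 on the same strand. The sources used here do not say whether counting used strand, so reads of overlapping genes may be shared.

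The vehicle library held 4582 barcodes and 37446978 UMIs (counted molecules), with a median of 6376 per barcode, and the library labelled knock-out held 2604 barcodes and 13075939 UMIs, with a median of 3716. Cells were grouped without use of the 8 members. Microglia-like cells numbered 2171 and 1354 in the vehicle library and the other, endothelial-like cells 1634 and 844, pericyte or smooth muscle-like cells 193 and 139, and erythrocyte-like cells 52 and 70. The microglia-like class came from cluster 0 in the vehicle library and cluster 2 in the other, and the endothelial-like class from clusters 1 and 3, so different clusters hold each class in the 2 libraries. Cluster 4, with 441 and 129 cells, had 10 of 18 microglia and 7 of 12 endothelial markers and got no name. All 18 microglia markers passed the naming level in clusters 0 and 2, and all 12 endothelial markers in clusters 1 and 3. The pericyte or smooth muscle-like class was mixed when clustered again within each library. Sub-clusters of 92 vehicle cells and of 63 cells of the other library had 6 and 7 of 8 fibroblast or meningeal markers past the naming level. Each had 5 of 10 pericyte markers past it, and no sub-cluster got the pericyte name. The targeted gene did not follow its label: Runx1 stood at 93 CPM, scaled to all UMIs of the class, in microglia-like cells of the vehicle library and at 181 CPM in the library labelled knock-out. Counts from the 3′ end check nothing if the deleted part lies elsewhere, and the labels do not name that part.

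Cx3cr1 had the highest level of the 8 members in each of these 4 classes. In microglia-like cells of the vehicle library it stood at 1095 CPM (1078 to 1111), from 17049 UMIs. The level in the library labelled knock-out was 1483 CPM (1453 to 1514), from 9158 UMIs, which is 1.35 times as high (1.32 to 1.39, log2 ratio 0.44). A Cx3cr1 UMI was found in 98.5% and 96.4% of these cells, at median depths of 5500 and 3471 UMIs. With every cell thinned to 1500 UMIs the shares were 75.2% (73.3 to 77.0) and 82.7% (80.6 to 84.7), so at 1 depth the order follows the CPM. Within the vehicle library the order of classes was microglia-like, then pericyte or smooth muscle-like at 524 CPM (494 to 555), endothelial-like at 379 CPM (368 to 390) and erythrocyte-like at 328 CPM (284 to 376), where the intervals of the last pair overlap. The library labelled knock-out had the order microglia-like, pericyte or smooth muscle-like at 349 CPM (312 to 388), erythrocyte-like at 217 CPM (179 to 260) and endothelial-like at 176 CPM (164 to 190), again with overlap in the last pair. The unnamed cluster 4 lay between microglia-like and vessel cells in both libraries, at 886 and 1135 CPM.

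**Figure D1:**
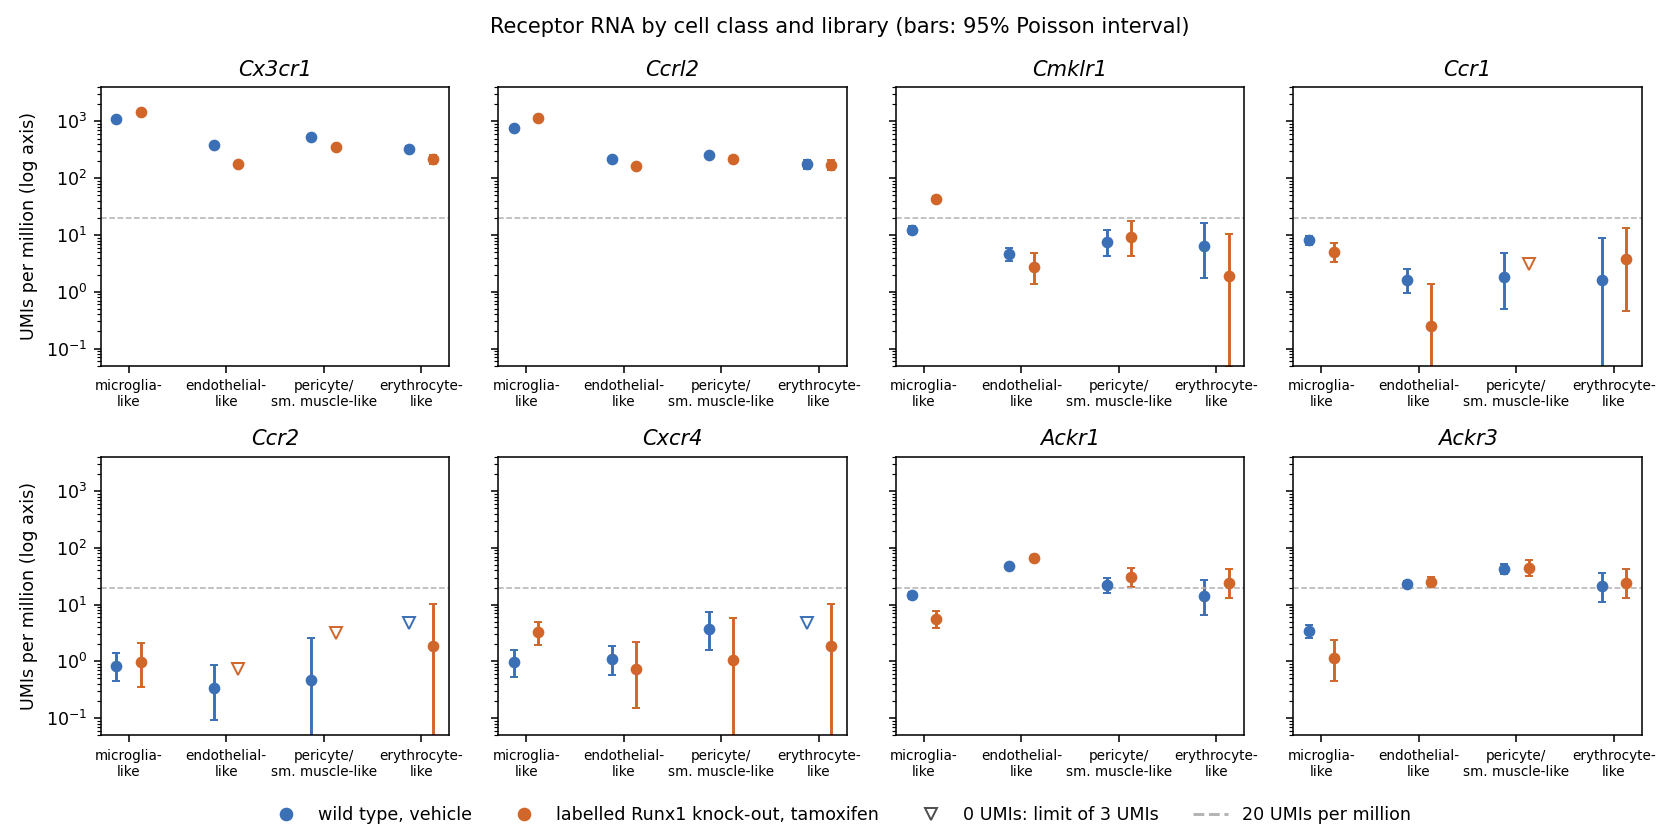
Level of each receptor gene in CPM (log axis) in 4 cell classes, blue for the vehicle library and orange for the library labelled knock-out, with 95% Poisson intervals; open triangles mark 0 UMIs at the level of 3 UMIs. Cx3cr1 and Ccrl2 lie above 20 CPM in all 4 classes, Ackr1 is highest in endothelial-like cells (48.5 and 65.5), and Ccr2 and Cxcr4 stay under 5 CPM throughout.

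Vessel cells also held Cx3cr1 RNA. In the vehicle library, 86.5% of endothelial-like cells had at least 1 Cx3cr1 UMI, at a median depth of 5958 UMIs, and 42.7% (40.2 to 45.1) had one after thinning. Of the endothelial-like cells from the library labelled knock-out, 47.4% had one at a median depth of 3588 UMIs, and 21.4% (18.7 to 24.4) after thinning. Erythrocyte-like cells, a class that should lack the gene, had thinned shares of 34.6% (22.0 to 49.1) and 22.9% (13.7 to 34.4), at median depths of 10672.5 and 6596 UMIs. Their cluster also had 9 of 12 endothelial markers past the naming level, so the class is not a clean blank. With cluster 4 kept apart, the endothelial-like share in the library labelled knock-out was no higher than the erythrocyte-like one, and in the vehicle library it was higher with overlapping intervals. All cells had passed a sort for YFP, a reporter driven from the same locus.

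Measured against microglia-like cells, the endothelial-like level of Cx3cr1 was 34.6% (33.5 to 35.7) in the vehicle library and 11.9% (11.01 to 12.8) in the library labelled knock-out. Microglia markers gave the background by the same measure. In the vehicle library the 18 markers ran from 17.7% for Gpr34, a lysophospholipid receptor, through a median of 32.7% to 49.1% for Trem2, a lipid-sensing receptor. Cx3cr1 had 10 markers below it and 8 above. The markers of the library labelled knock-out ran from 7.09% (Gpr34) through 14.3% to 16.9% (Trem2), and Cx3cr1 had 6 below and 12 above. Cx3cr1 lay inside the spread of the marker list in both. Its size and, in the library labelled knock-out, its place among the markers changed with the clustering. At resolution 1.0, 427 and 127 cells of cluster 4 joined the endothelial-like class. In the library labelled knock-out, 399 cells in place of 1354 were called microglia-like. Cx3cr1 then stood at 53.2% in the vehicle library, inside the markers' 34.3% to 59.5%, and at 27.7% (25.9 to 29.5) in the other, above the highest of its markers (10.7% to 22.0%). With each library clustered on its own it stood at 55.3%, inside 36.4% to 60.8%, and at 29% (27.3 to 30.8), again above the highest marker (13.5% to 24.6%). There 554 cells of the library labelled knock-out were called microglia-like. The parts of cluster 4 and of the smaller microglia-like class in these changes were not tested. Erythrocyte-like cells had Cx3cr1 at 29.9% (26.0 to 34.4) and 14.6% (12.1 to 17.6) beside marker medians of 30.3% and 14.6%.

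**Figure D2:**
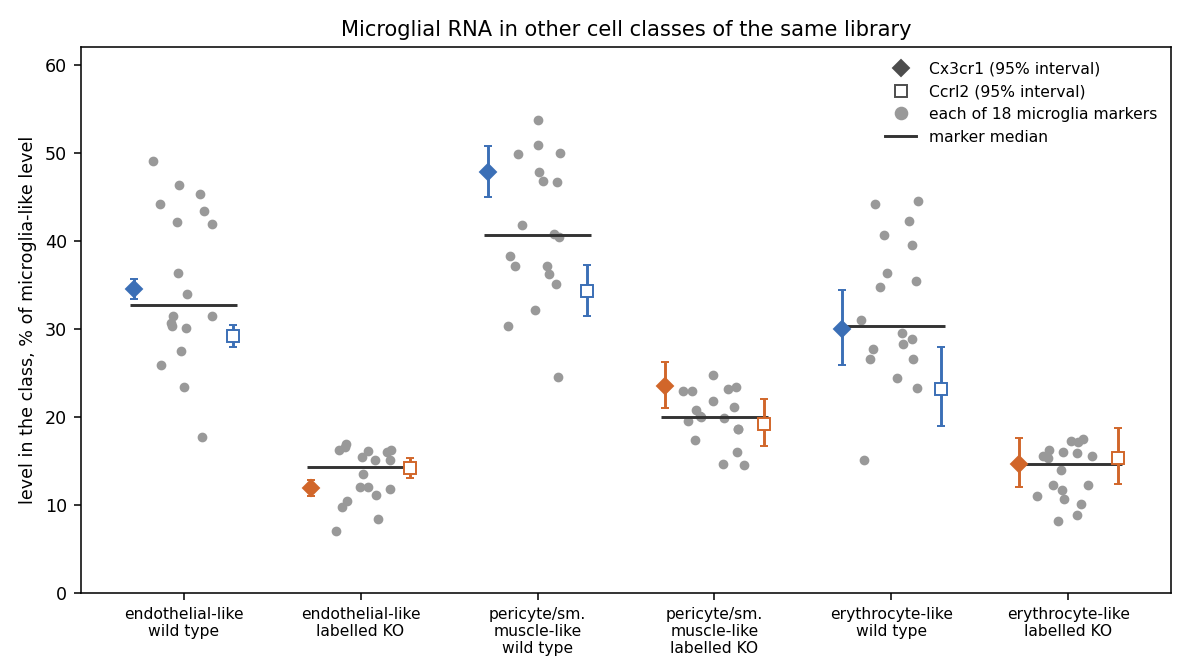
Level in endothelial-like, pericyte or smooth muscle-like and erythrocyte-like cells as a percent of the level in microglia-like cells of the same library, for Cx3cr1 (filled diamonds), Ccrl2 (open squares) and each of 18 microglia markers (grey points, with the median as a line). Cx3cr1 lies within the range of the markers in all 6 groups, and in each class the level of Cx3cr1 and the marker median are lower in the library labelled knock-out.

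Counted per 1000 UMIs of the summed microglia markers, Cx3cr1 stood at 20.9 (20.6 to 21.3) in microglia-like cells and at 19.6 (19.1 to 20.2) in endothelial-like cells of the vehicle library. The pair in the library labelled knock-out was 27.1 (26.6 to 27.7) and 23.4 (21.7 to 25.2). Endothelial-like cells thus had fewer Cx3cr1 UMIs per marker UMI than microglia-like cells while cluster 4 was kept apart, and cluster 4 itself held 25.7 and 41.1. The marker list as a whole was at 52249 CPM and 54682 CPM in microglia-like cells and at 19289 CPM and 7548 CPM in endothelial-like cells, with no marker at 0. Between the libraries, Cx3cr1 in endothelial-like cells had a log2 ratio of -1.10 (-1.22 to -0.99), and the microglia marker sum there was lower too. The part of that RNA in the difference was not tested. With each library clustered on its own the ratio was -0.56. Along the vessel tree, arterial-like, capillary-like and venous-like endothelial cells held 375, 374 and 385 CPM in the vehicle library and 198, 158 and 174 CPM in the other. The venous-like level was 1.03 times the capillary-like one (0.96 to 1.11) in the vehicle library and 1.1 times (0.91 to 1.34) in the other.

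Pericyte or smooth muscle-like cells had more Cx3cr1 than endothelial-like cells, by 1.38 times (1.29 to 1.48) in the vehicle library and 1.98 times (1.73 to 2.25) in the library labelled knock-out. Their level was 47.8% and 23.5% of the microglia-like one. In the vehicle library 13 of 18 markers lay below Cx3cr1 and in the other library 17 of 18, the exception being Laptm5, a lysosomal membrane gene, at 24.8%. Per 1000 marker UMIs they held 23.7 (22.3 to 25.1) and 31.9 (28.5 to 35.6). In the library labelled knock-out 194 of the 334 UMIs came from 1 sub-cluster of 24 cells, which held 1107 CPM (957 to 1274) and 41.6 Cx3cr1 UMIs per 1000 marker UMIs. Its 10 leading genes included the microglial or myeloid genes Itgam, Ly86, P2ry12 and Csf1r and Cx3cr1 itself, and all 18 microglia markers stood above the middle of their range there. The part of microglial RNA in this level was not tested. The other 2 sub-clusters held 180 and 178 CPM, with intervals (145 to 221 and 132 to 234) that hold the endothelial-like 176.

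Cmklr1, the chemerin receptor, showed the widest gap between the libraries among the members with at least 20 CPM. Microglia-like cells held 12.3 CPM (10.6 to 14.1, 191 UMIs) in the vehicle library and 43.1 CPM (38.1 to 48.6, 266 UMIs) in the library labelled knock-out. The level there was 3.51 times as high (2.91 to 4.25, log2 ratio 1.81), rank 14 from the top of 5746 genes. Cmklr1 passed the limit of 20 CPM only through that library. Thinned shares of cells with a UMI were 1.89% (1.36 to 2.55) and 6.06% (4.85 to 7.46), and unthinned shares 8.25% and 17.3%. Endothelial-like cells held 4.59 and 2.74 CPM, with thinned shares of 0.979% and 0.355%. The microglia-like share lay above the endothelial-like one in the library labelled knock-out. In the vehicle library the intervals (0.561 to 1.59 in endothelial-like cells) overlap. The ratio of endothelial-like to microglia-like level was 37.4% in the vehicle library. For the library labelled knock-out it was 6.36% (3.135 to 11.6), and the lowest microglia marker stood at 7.09%.

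Ccrl2, the atypical receptor that presents chemerin, was the second most abundant member by UMIs, which count 3′ tags of molecules and need no scaling by gene length. In microglia-like cells it stood at 756 CPM (743 to 770) in the vehicle library. In the library labelled knock-out it stood at 1137 CPM (1110 to 1164), 1.5 times as high (1.46 to 1.55, log2 ratio 0.59). Thinned shares were 61.9% (59.8 to 64.0) and 71.0% (68.5 to 73.4). In endothelial-like cells it was at 221 and 161 CPM, a log2 ratio of -0.45 (-0.58 to -0.33), and thinned shares were 29.1% and 23.2%, beside 25% and 21.4% in erythrocyte-like cells. These endothelial-like levels were 29.2% and 14.2% of the microglia-like ones, inside the range of the microglia markers. The difference between the libraries in microglia-like cells depended on the clustering, with a log2 ratio of 0.039 at resolution 1.0, where 399 cells of the library labelled knock-out were called microglia-like, and 0.17 with each library clustered on its own, where 554 were. After thinning, 61.2% of the vehicle cells with a Cx3cr1 UMI and 64.2% of those without one had a Ccrl2 UMI, and the pair was 71.2% and 70.1% in the library labelled knock-out, with overlapping intervals in both. A cell with a Cx3cr1 UMI was thus not seen to hold Ccrl2 more often.

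Microglia-like cells were split into 3 sub-clusters in each library, again without the members. Cx3cr1 and Ccrl2 did not share an order over them. In the vehicle library Cx3cr1 was highest, at 1289 CPM, in the sub-cluster led by Hspa1b, a heat shock gene, where Cx3cr1 itself was among the 10 leading genes. It was lowest, at 887 CPM, in the one led by Spp1 and Cxcl2, with Il1b and Tnf among its 10 leading genes. Ccrl2 was highest in that same sub-cluster, at 970 CPM, and lowest, at 554 CPM, in the one with Ccl7, Txnip and the microglia markers Gpr34 and P2ry12 among its 10 leading genes. In the library labelled knock-out Cx3cr1 was highest, at 1741 CPM, in the sub-cluster led by Spp1 and Lpl, and stood at 1276 to 1350 CPM in the other 2. Ccrl2 was highest there, at 1441 CPM, in the sub-cluster led by Tnfsf9 and the hemoglobin gene Hba-a2, with the activation gene Cd83 among its 10 leading genes, and lowest, at 887 CPM, in the one led by Hes1. Cmklr1 stood at 11.95 to 12.8 CPM and 39.6 to 48.1 CPM, with intervals that overlap within each library and not between them. Median depths of the sub-clusters ran from 3918 to 9751 and from 3027 to 7075 UMIs, and Cx3cr1 was highest in the deepest one of each library.

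**Figure D3:**
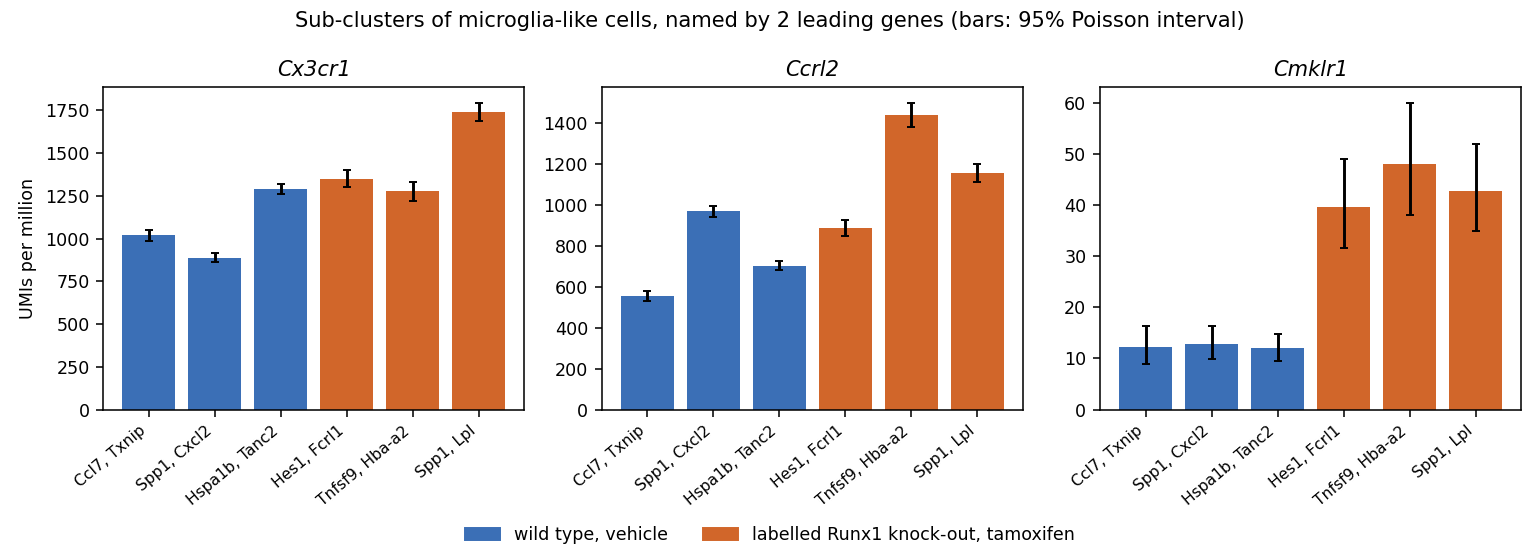
Level of Cx3cr1, Ccrl2 and Cmklr1 in CPM in the 3 sub-clusters of microglia-like cells of each library, each named by 2 of its leading genes, with 95% Poisson intervals. Cmklr1 is between 39.6 and 48.1 in the library labelled knock-out and between 11.95 and 12.8 in wild type, while for Cx3cr1 and Ccrl2 the ranges of the 2 libraries overlap (for Cx3cr1 1289 in wild type against 1276 in the other).

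The 3 receptors of circulating leukocytes were at low levels. Ccr1, a receptor of inflammatory CC chemokines, stood at 8.09 CPM (6.74 to 9.63, 126 UMIs) and 5.02 CPM (3.41 to 7.13, 31 UMIs) in microglia-like cells. The log2 ratio was -0.69 (-1.30 to -0.11). Its interval includes 0 when thinned (-1.87 to 0.33), at resolution 1.0 (-1.36 to 0.66) and with each library clustered on its own (-1.55 to 0.37). Unthinned shares were 4.79% and 1.85%, and thinned shares 1.34% (0.896 to 1.91) and 0.812% (0.406 to 1.45), with overlapping intervals. Endothelial-like cells held 19 and 1 Ccr1 UMIs. Ccr2, the receptor of Ccl2 on monocytes, had 13 and 6 UMIs in microglia-like cells (0.835 and 0.972 CPM). It had 4 and 0 UMIs in endothelial-like cells, where the interval of the 0 count reaches 0.918 CPM. Cxcr4, the receptor of Cxcl12, had 15 and 20 UMIs in microglia-like cells, or 0.963 CPM (0.539 to 1.59) and 3.24 CPM (1.98 to 5.00). It was 3.36 times as high in the library labelled knock-out (1.64 to 7.06). Endothelial-like cells held 13 and 3 UMIs. In the vehicle library their level was 1.09 CPM (0.578 to 1.86), with an interval that overlaps the microglia-like one. In pericyte or smooth muscle-like cells Ccr1 had 4 and 0, Ccr2 1 and 0 and Cxcr4 8 and 1 UMIs. No class with 50 cells or more reached 20 CPM of any of the 3.

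Ackr1 was highest in venous-like endothelial cells. Endothelial-like cells held 48.5 CPM (44.6 to 52.6) in the vehicle library. In the library labelled knock-out they held 65.5 CPM (57.8 to 73.9), 1.35 times as high (1.16 to 1.56, log2 ratio 0.43). The log2 ratio was 0.13 as a mean of CPM per cell and 0.32 (-0.20 to 0.84) thinned. It was 0.059 with free RNA taken out, for which the profile of all kept cells of the library stood in. In the vehicle library venous-like cells held 116 CPM (106 to 127), beside 18.3 in capillary-like and 15.1 in arterial-like cells. The levels in the library labelled knock-out were 137 CPM (121 to 155), 3.83 and 7.81. Venous-like over capillary-like cells came to 6.36 times (4.93 to 8.30) and 35.9 times (13.8 to 133), and over arterial-like cells to 7.70 times (5.88 to 10.2) and 17.6 times (9.12 to 38.9). Venous-like cells were 295 of 1634 endothelial-like cells in the vehicle library and 258 of 844 in the library labelled knock-out. In capillary-like and arterial-like cells Ackr1 was lower in the library labelled knock-out. The part of the sub-type mix in the ratio over all endothelial-like cells was not tested. Ackr1 was kept out of the clustering and the marker lists, though other venous genes were not. Over all other endothelial-like cells the log2 ratio of the vehicle library was 2.84, and it ran from 2.49 to 3.69 over 8 alternatives, lowest with each library clustered on its own and highest with the members allowed in the clustering. Thinned shares over all endothelial-like cells were 3.24% (2.44 to 4.22) and 3.08% (2.02 to 4.48).

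Ackr1 in microglia-like cells was at 14.6 and 5.51 CPM, a log2 ratio of -1.41 (-1.98 to -0.89). This was 30.2% and 8.41% of the endothelial-like level. The 12 endothelial markers stood in microglia-like cells at 17.7% to 36.4% of their endothelial-like level in the vehicle library, with a median of 27.0%, and at 4.39% to 14.3%, with a median of 10.3%, in the other. Ackr1 lay inside these ranges in both libraries. Ackr3, at 14.8% and 4.51%, lay under the range in the vehicle library and inside it in the other. The endothelial marker sum in microglia-like cells was 6829 and 2332 CPM, so it was lower with Ackr1 in the library labelled knock-out, and its part was not tested.

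Ackr3, which takes up CXCL12, was highest in mural cells. Pericyte or smooth muscle-like cells held 42.1 CPM (33.9 to 51.7) and 44.9 CPM (32.5 to 60.5), and within them the smooth muscle-like sub-cluster, with 101 and 52 cells, held 65.8 CPM (50.4 to 84.6) and 60.4 CPM (35.2 to 96.7). The other sub-clusters held 24.3 CPM in the vehicle library and 37.9 and 39.9 CPM in the library labelled knock-out, where the intervals overlap that of the smooth muscle-like cells. Endothelial-like cells held 23.0 and 25.1 CPM, a log2 ratio of 0.13 whose interval (-0.21 to 0.47) includes 0, and the 3 named sub-types all lay between 21.5 and 26.4 CPM. In microglia-like cells Ackr3 had 53 and 7 UMIs, or 3.40 and 1.13 CPM.

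**Figure D4:**
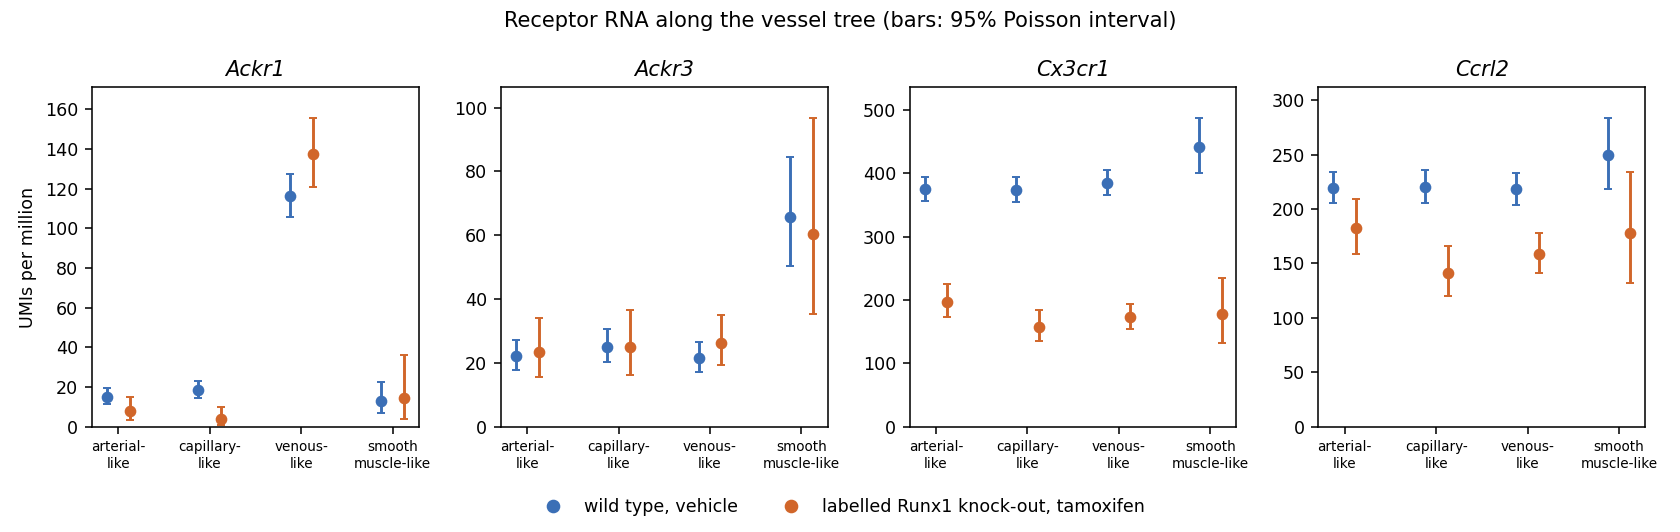
Level of Ackr1, Ackr3, Cx3cr1 and Ccrl2 in CPM in arterial-like, capillary-like and venous-like endothelial cells and in smooth muscle-like cells, blue for the vehicle library and orange for the library labelled knock-out, with 95% Poisson intervals. Ackr1 stands out in venous-like cells (116 and 137), Ackr3 in smooth muscle-like cells (65.8 and 60.4), and Cx3cr1 lies between 374 and 385 in the endothelial sub-types of the vehicle library and between 158 and 198 in those of the other.

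Set against all genes, the members differed between the libraries in both directions. In microglia-like cells 3 members reached 20 CPM in a library, and 2 of them, Cmklr1 and Ccrl2, were at least 1.5 times higher in the library labelled knock-out, as were 8.13% of the 5746 genes measured there. None was lower by that fold, as were 12.4% of all genes. At a minimum level of 10 CPM the count lower was 1, Ackr1. Cmklr1 passed the 20 CPM limit only through the library in which it was higher (12.3 and 43.1 CPM), so both counts depend on that limit. The median log2 ratio of the 3 members was 0.59, beside -0.04 for all genes, and it depends on the same limit. Ccrl2 passed the fold narrowly, and the count was 1 in 6 of 12 alternatives. In endothelial-like cells 4 members were measured. None was higher by 1.5 times (5.28% of 6283 genes were) and 1, Cx3cr1, was lower (5.97% were), with a member median of -0.16 beside 0.09. With each library clustered on its own no member was lower there. In pericyte or smooth muscle-like cells 4 members were measured, of which none was higher (10.9% of 6692 genes were) and 1, Cx3cr1, was lower (7.71% were), with a log2 ratio of -0.59 (-0.77 to -0.41) that passed the fold narrowly. The microglia marker sum in this class was 22114 and 10937 CPM, and its part was not tested. Ccrl2, Ackr1 and Ackr3 had log2 ratios of -0.25, 0.48 and 0.09 there. At a fold of 2, microglia-like cells had 1 member higher, Cmklr1 (1.81% of genes), and 0 lower (5.31%), endothelial-like cells had 0 higher (0.653%) and Cx3cr1 lower (2.72%), and pericyte or smooth muscle-like cells had 0 in either direction (2.32% and 2.51%). Between classes, Cx3cr1 and Ccrl2 were at least 2 times higher in microglia-like than in endothelial-like cells of the vehicle library, as were 10.1% of 6306 genes, and Ackr1 and Ackr3 were lower by as much, as were 15.1%. Cmklr1 joined the first pair in the library labelled knock-out (14.7% of 6708 genes), and the second pair was the same there (24.8%).

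**Figure D5:**
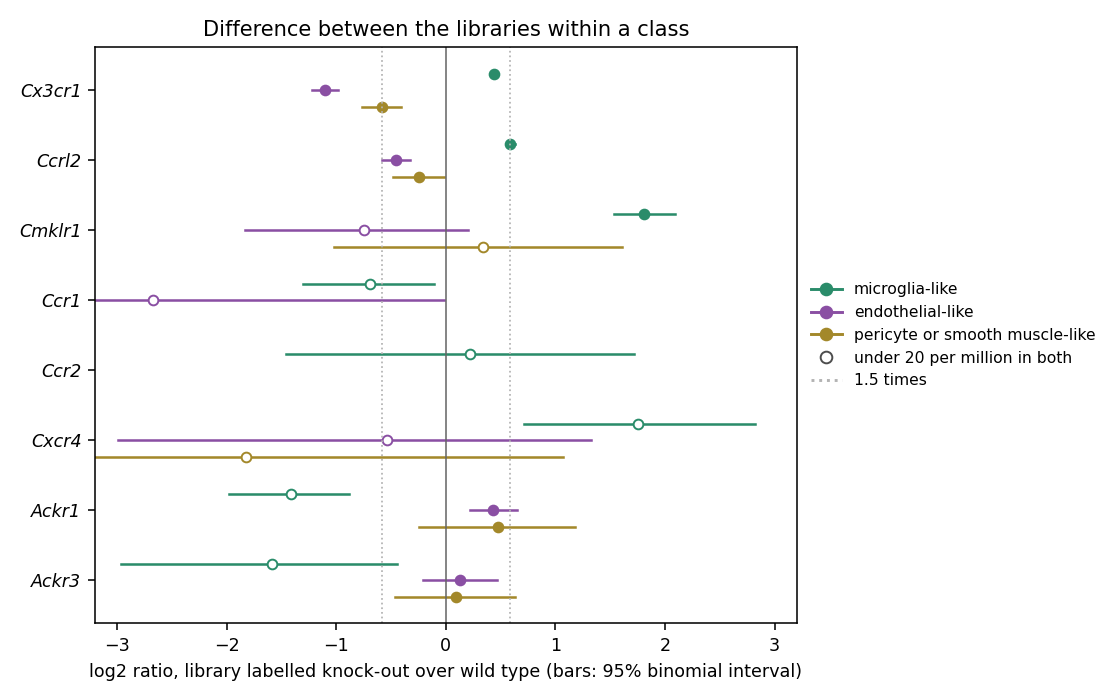
Log2 ratio of the library labelled knock-out over the vehicle library for each receptor gene, by class, with 95% binomial intervals; open points are under 20 CPM in both libraries, dotted lines mark 1.5 times, and genes with too few UMIs for a ratio have no point. Cmklr1 in microglia-like cells lies at 1.81, and Cx3cr1 at 0.44 in microglia-like but -1.10 in endothelial-like cells.

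Genes around the members were described from 3 lists. Of 18 other chemokine receptors, 2 were measured in microglia-like cells and neither was past 1.5 times. Ccr6, the receptor of Ccl20, stood at 42.9 and 38.9 CPM (log2 ratio -0.14, -0.36 to 0.07). Of 17 genes listed as ligands of the members, 13 were measured, and whether each binds a member was not tested. Of the 13, 5 were higher and 3 lower by 1.5 times (8.13% and 12.4% of all genes were). Their median was -0.07 beside -0.04 for all genes. Ccl24 was higher, at 5.39 and 28.2 CPM, as was Ccl2, the CCR2 ligand, at 190 and 363 CPM (0.94, 0.86 to 1.02). Rarres2, which codes for chemerin, was lower, at 28.3 and 8.10 CPM (-1.81), as were Ccl5 at 40.5 and 12.3 CPM (-1.72) and Cxcl12 at 307 and 120 CPM (-1.36). Cxcl12 is abundant in endothelial-like cells, at 1366 and 1758 CPM, and Rarres2 in pericyte or smooth muscle-like cells, at 122 and 151 CPM. The endothelial marker sum in microglia-like cells was lower too, as given above, and the part of vessel RNA in these differences was not tested.

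Genes of chemokine receptor signalling were measured for 27 of 37 in microglia-like cells. Of these, 24 had a ratio above 0, as did 46.3% of all genes, 2 were higher and 1 lower by 1.5 times (8.13% and 12.4% of all genes were), and the median was 0.24 beside -0.04. Pik3r5, the regulatory subunit of the G protein-driven PI3-kinase, stood at 15 and 33.4 CPM (1.16), its catalytic partner Pik3cg at 28.1 and 39.8 CPM (0.50), and the G protein subunit genes Gng10 at 41.2 and 85.3 CPM (1.05) and Gnb4 at 25.5 and 9.88 CPM (-1.37). Rasgrp3, an activator of Ras-like proteins, stood at 153 and 223 CPM (0.54). In endothelial-like cells 21 of the list were measured, 0 higher and 8 lower (5.28% and 5.97% of all genes were), with a median of -0.16 beside 0.09 for all genes, and the 5 named by size were Rgs2 (-1.68), Rac2 (-1.39), Vav1 (-1.28), Rgs10 (-1.26) and Rgs1 (-1.07). The ligand list was at a median of -0.67 there, with 2 higher and 7 lower of 13 against the same shares of all genes, led in size by Ccl5 (-2.33), Rarres2 (-1.72), Ccl3 (-1.70), Cxcl2 (-1.31) and Cxcl10 (-1.23). The microglia marker sum was lower in these cells too, as given above, and its part was not tested. Cx3cl1, the ligand of CX3CR1, stood at 22.7 and 36.6 CPM in endothelial-like cells (0.69, 0.39 to 0.98).

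Likeness to each member was taken as Pearson's r of log2(CPM + 10) over 10 sums of a cluster and library, among 7486 genes. These sums share libraries and free RNA, so r describes them only. Closest to Cx3cr1 were Pou2f2 (0.997), Dtx4 (0.994), Slc16a6 (0.992), Lair1 (0.992) and Usp2 (0.99). Closest to Ccrl2 were the chemokine gene Ccl4, the selectin ligand gene Selplg and the protease gene Lgmn, at 0.994 to 0.996. Cmklr1 had Arid3a, Fcrl1 and Man2b2 at 0.964 to 0.969, Ackr1 had Mtmr2, E030030I06Rik and Scmh1 at 0.932 to 0.955, and Ackr3 had the nuclear receptor gene Nr4a2, the integrin gene Itga1 and the connexin gene Gjc1 at 0.976 to 0.982. Cmklr1 reached 20 CPM in 2 of the 10 sums, Ackr1 in 5 and Ackr3 in 6, so the Cmklr1 values rest on few sums above that level. Ccr1, Ccr2 and Cxcr4 reached 20 CPM in none of the 10 sums. Their nearest genes by the rule were Tspan33, Sec61g and Tnfsf13b for Ccr1 (0.894 to 0.905), Tyw1, Pmpca and Mta3 for Ccr2 (0.739 to 0.798) and Fosl2, Larp4 and Pabpc4 for Cxcr4 (0.829 to 0.842), which at such counts carry no finding.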

How the data were processed

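Deposited by the authors was 1 matrix of raw UMI counts, genes by barcodes, for each library, from a 10x v2 kit that counts 3′ ends, per the labels' protocols. Per the submitters' processing notes, which give no role, STAR, Cell Ranger 2.0.1, Seurat 2.1.0, mm10 and GRCm38.p5 were involved. The sources used here do not say how barcodes were chosen. The labels state 23500 and 22800 sorted and 4500 and 2600 recovered cells, beside 4582 and 2604 barcodes, of which 4582 and 2596 passed limits of 300 genes or more and a mitochondrial share of 10% or less. The libraries share 9 barcodes.

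Cells of both libraries were clustered together (2000 variable genes without the 8 members, Runx1 and sex-linked genes; 30 principal components, 15 neighbours, leidenalg 0.10.2 at resolution 0.5, scikit-learn 1.9.0, scipy 1.17.1), and each main class again within its library. Clusters were named from 23 marker lists with a scoring set after the clusters were seen: a marker counted at 20 CPM and above the midpoint of its span across clusters. A name needed at least 3 counted markers and 50% of the list. It also needed 2 of them among the 10 leading genes, or the largest share with no rival at 60% of it. Doublets were left in, except in 1 alternative. UMIs were summed over a class and library and divided by all UMIs of those cells (CPM). Levels carry exact Poisson, shares Clopper-Pearson and ratios exact conditional binomial intervals at 95%, which leave out all variation between animals. A count of 0 was put at 3 counts per class and library. The ratio intervals were tested on simulated Poisson counts at the totals of whole libraries, for genes of 20 CPM or more. Smaller sums of a class or sub-cluster and variation between cells were not simulated. Genes with 20 CPM in 1 library or both were measured.

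The members and lists were chosen with earlier results of these data known. Named were all members in every class of at least 50 cells, up to 5 genes per list by size of log2 ratio, the lowest and highest microglia marker, and the 5 (Cx3cr1) or 3 genes of highest likeness; 2 genes that these rules or the sub-cluster names would bring in are not reported here. Alternatives changed the total, centring, per-cell weighting, thinning, free RNA, cell filter, doublets, members in the clustering, resolution, joint clustering, minimum level and fold. For free RNA, the summed profile of all kept cells of a library stood in, and empty droplets were not used. Gene positions are from GENCODE M21 and promoters from RefSeq.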

Additional observations from a re-analysis of the deposited data

Results flagged for a closer look

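For 3 members the difference between the libraries had opposite signs in microglia-like and endothelial-like cells, with intervals that leave out 0 in both. Cmklr1, Cxcr4 and Ackr3 had opposite signs too, with an endothelial-like interval that includes 0. The endothelial-like minus the microglia-like log2 ratio was -1.54 for Cx3cr1 and -1.04 for Ccrl2, both higher in microglia-like and lower in endothelial-like cells from the library labelled knock-out. For Ackr1 it was 1.84, in the reverse direction. With 1 library per group, none of these differences between classes was tested.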

How the results depend on the processing

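Of 12 alternatives, each main value had those that could give one. The Cmklr1 log2 ratio in microglia-like cells was 1.60 to 1.85 in all 10. The ratio of Cx3cr1 there (0.44) came to 0.48 centred on the median gene, 0.49 thinned to 1500 UMIs, 0.21 with free RNA taken out, 0.26 at resolution 1.0 and 0.37 with each library clustered on its own. That of Ccrl2 (0.59) came to 0.29, 0.039 and 0.17 in the last 3. The count of members higher by the fold was 1 in place of 2 in those 3, with thinning, with a stricter cell filter (1000 genes, 5% mitochondrial), and at a fold of 2. The endothelial-like level of Cx3cr1 in percent of the microglia-like one (34.6 wild type, 11.9 labelled knock-out) came to 53.2 and 27.7 at resolution 1.0 and 55.3 and 29 with each library on its own, where 427 and 127, and 416 and 129, of the endothelial-like cells came from the mixed cluster 4. Then 399 and 554 cells in the library labelled knock-out were called microglia-like. The cause was not tested. In wild type it was 36.4 as a mean per cell and 38.0 thinned. With free RNA taken out it was 0 in both: the amount removed is set so that the summed microglia markers reach 0 in these cells, and Cx3cr1 was floored at 0. The profile removed was that of all kept cells of the library, so this step also takes out RNA of a class's own cells. No called value changed sign; Ackr1 in microglia-like cells ran from -4.56 (free RNA taken out) to -1.26. Scrublet removed 168 and 54 cells, 152 and 42 of them in cluster 4. No paired analysis was possible because there is 1 library per group, for which reason no replicate could be left out.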

Other observations

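In classes of fewer than 50 cells, chosen here after their values were seen, Cxcr4 had its highest level in ependymal-like cells, the ciliated lining of the central canal, with 6 UMIs in 18 cells (24.5 CPM, 8.99 to 53.3) of the vehicle library and 6 UMIs in 27 cells (31.2 CPM, 11.4 to 67.8) of the library labelled knock-out. Microglia-like cells held 0.963 and 3.24 CPM. Ccr2 had 4 UMIs in 24 border-associated macrophage-like cells of the vehicle library (15 CPM, 4.10 to 38.5) and 3 UMIs in 6 such cells of the other (70.6 CPM, 14.6 to 206), and 3 UMIs in 7 neutrophil-like cells of the vehicle library (59.0 CPM, 12.2 to 173). Cx3cr1 in border-associated macrophage-like cells stood at 1011 and 1530 CPM, with intervals (894 to 1140 and 1181 to 1950) that overlap those of microglia-like cells. In the unnamed cluster 4, with markers of microglia and endothelium, Cx3cr1 had 25.7 and 41.1 UMIs per 1000 microglia marker UMIs, above the 20.9 and 27.1 of microglia-like cells.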
